A study of Mus musculus with 8 samples.

Results

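The Fox genes encode the forkhead transcription factors, and the SMAD4 peaks around them were examined in mouse limb buds at embryonic day (E) 9.5 and E10.5. Members were the protein-coding genes of the mm9 annotation (GENCODE vM1) whose symbol is Fox followed by a letter from A to S and a number, which gave 43 of the 22350 protein-coding genes on chromosomes 1 to 19 and X, in 19 subfamilies. Foxl1 was not among them because this annotation types it as a pseudogene. Peaks were assigned to a member by the distance of their centre from the 5′ end of the gene, within 5 kb and within 100 kb.

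The study mapped SMAD4 binding by chromatin immunoprecipitation and sequencing (ChIP-seq). All embryos were of the NMRI strain and were homozygous for a Smad4 allele with a 3xFLAG epitope tag, and chromatin was precipitated with the M2 anti-FLAG antibody. The series holds 8 samples, with 2 SMAD4 ChIP and 2 input samples per stage. The E9.5 samples (dated E9.75 in the protocol, about 80 embryos per replicate) were forelimb buds with the attached trunk, whereas the E10.5 samples (about 100 embryos per replicate) were fore- and hindlimb buds, so that stage and tissue cannot be told apart. The authors merged both replicates of a stage into 1 peak list, with 2073 peaks at E9.5 and 6185 at E10.5. No value therefore has a replicate error, the depth of the libraries is unknown, and the lack of a peak at a gene does not show that SMAD4 was absent there. The labels name forelimb buds as the source of every sample and give the hindlimb buds under tissue. The comparisons are counts and values of these lists, without a test.

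Forkhead proteins share a winged-helix DNA-binding domain, and the letter in the name gives the subfamily. FOXH1 is the classical partner of SMAD complexes in Nodal and activin signaling. FOXO proteins are kept out of the nucleus by insulin and growth factor signaling through AKT, and they can bind DNA together with SMAD proteins. Several other members, such as Foxc1, Foxc2, Foxf1a and Foxf2, pattern mesoderm-derived tissues.

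The share of Fox genes with a SMAD4 peak near the start was close to that of all protein-coding genes at both stages. At E9.5, 1 of 43 members (2.33%) had a peak centre within 5 kb of its 5′ end, against 2.64% of all protein-coding genes, and this member was Foxo3. At E10.5, 7 members (16.3%) had such a peak, against 13% of all protein-coding genes. They were Foxa2, Foxd2, Foxf2, Foxl2, Foxo3, Foxo4 and Foxq1. Within 100 kb, 11 members (25.6%) had an E9.5 peak against 20.5% of all protein-coding genes, and 26 (60.5%) had an E10.5 peak against 52.9%. At 5 and 100 kb the shares of the family thus lay near those of all genes, and nothing was read from the small excess. At 200 kb they lay further apart, at 48.8% against 34.5% (E9.5) and 81.4% against 67.6% (E10.5), which was not tested. The nearest E9.5 peak lay at a median distance of 201.6 kb from a member, compared with 349.7 kb over all protein-coding genes. For the nearest E10.5 peak the median was 62.9 kb, compared with 87.8 kb.

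**Figure D1:**
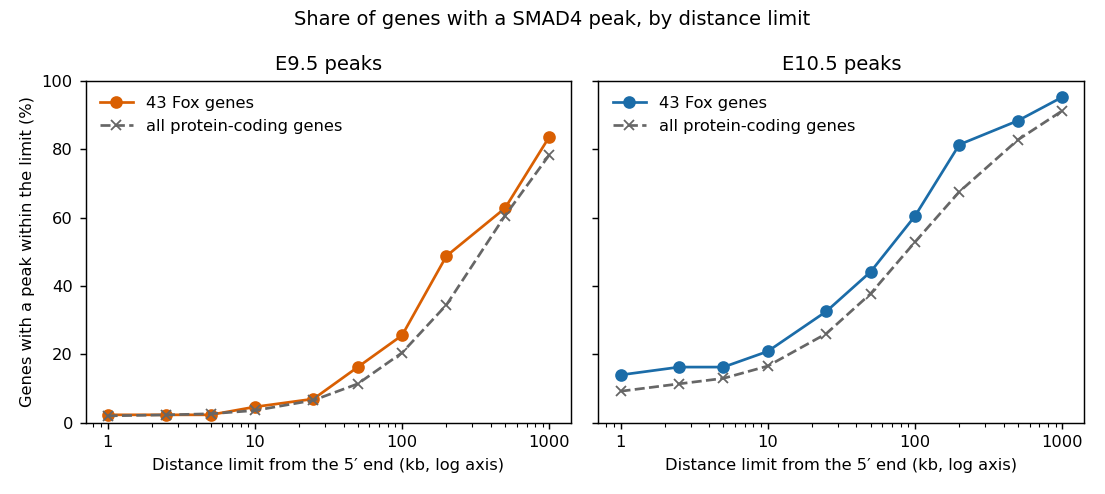
Share of genes (%, y axis) with a SMAD4 peak centre within the distance limit on the x axis (kb from the 5′ end, log axis), for the 43 Fox genes (circles, solid line) and all 22350 protein-coding genes (crosses, dashed line), at E9.5 (left) and E10.5 (right). At 5 kb the lines are at 2.33% and 2.64% (E9.5) and at 16.3% and 13% (E10.5), and they lie farthest apart at 200 kb, at 48.8% and 34.5% (E9.5) and at 81.4% and 67.6% (E10.5).

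The number of members with a peak was higher at E10.5, but so was the length of the list. When the E10.5 list was reduced to its best-scored peaks, as many as at E9.5, 3 members (Foxd2, Foxo3 and Foxq1) kept a peak within 5 kb and 15 had one within 100 kb. In this reduced list, 6.32% of all protein-coding genes had a peak within 5 kb and 28% within 100 kb. In the full lists, a peak of both stages lay within 100 kb of 9 members (20.9%, against 14.7% of all protein-coding genes), an E10.5 peak alone within 100 kb of 17 (39.5% against 38.3%), and an E9.5 peak alone within 100 kb of 2, Foxd4 and Foxi2 (4.65% against 5.86%). No peak of either stage lay within 100 kb of 15 members (34.9% against 41.2%).

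Foxo3, a FOXO gene that acts in stress responses and in the resting ovarian follicle, had the best-scored peaks at the start of any member. The E9.5 peak chr10:41993290-41998740 had a score of 140.6, rank 110 of 2073, and its centre lay 0.546 kb downstream of the 5′ end. The E10.5 peak chr10:41993446-41998676 had a score of 115.8, rank 279 of 6185, with its centre at 0.500 kb. The score is the value that the authors gave each merged peak. Its unit is not stated, and a higher score was taken as a better call. The E10.5 peak lay entirely inside the E9.5 peak, and both spanned the start of the gene (ENSMUSG00000048756.4, chr10:41901647-41996561, minus strand) and reached into the gene by 3.27 kb (E9.5) and 3.12 kb (E10.5). A peak of both stages within 5 kb was found at Foxo3 alone among the members, and at 1.3% of all protein-coding genes. The central 300 bp of the E9.5 peak held the SMAD core sequence CAGACC on both strands, as an inverted pair with 4 bases in between, at chr10:41995906-41995935 (mm9, plus strand), 640 bp downstream of the 5′ end and inside an intron. It is shown because it is the SMAD sequence nearest the centre of the only peak found at a member's start at both stages, with the matches of CAGACC and of its reverse complement in capitals.
Foxo3, E9.5 and E10.5 peaks: ggGGTCTGggtgCAGACCtgccaagatcac

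The same stretch lay 140 bp from the centre of the E10.5 peak, so that 1 of its matches was inside the central 300 bp there. Such an inverted pair (GGTCTGNNNNCAGACC) was in the central 300 bp of 1 of 2073 E9.5 peaks (0.0482%), the peak at Foxo3, and of 1 of 6185 E10.5 peaks (0.0162%), which was not the peak at Foxo3. This pattern was chosen after the sequence had been seen, and a match describes the letters and not a bound site.

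The other FOXO genes differed from Foxo3. Foxo4, on the X chromosome, had the E10.5 peak chrX:98449165-98451350 (score 52.3, rank 4664) with its centre in a coding exon 0.390 kb downstream of its 5′ end. Its only E9.5 peak within 100 kb was chrX:98417032-98418396 (score 83.4, rank 305), 32.2 kb upstream and 0.188 kb from the start of Snx12, so that another gene was nearer. Foxo6 had an intergenic E9.5 peak 37.9 kb upstream (score 55.9) and an E10.5 peak in its own coding sequence 18.98 kb downstream (score 66.2). Foxo1 had no peak within 100 kb at either stage, and its nearest peaks lay just outside, at 101.4 kb (E9.5) and 121.1 kb (E10.5). Thus Foxo3, Foxo4 and Foxo6 had peaks within 100 kb at each stage, and only those at Foxo3 overlapped between the stages.

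The remaining 5 members with a start-proximal peak had it in the E10.5 list alone, and their nearest E9.5 peaks lay 167.9 to 1877 kb away. Foxd2, a gene of paraxial mesoderm and kidney, had the peak chr4:114579461-114582643 (score 78.7, rank 1231), centred in its coding exon at 0.451 kb. Foxq1 had chr13:31648968-31652299 (score 76.7, rank 1331), centred in its coding exon at 0.594 kb, but the start of the overlapping gene A530084C06Rik was slightly nearer, at 0.569 kb. These were the better-scored peaks of this group.

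Foxl2, which is known for its role in the ovary and eyelid, had chr9:98854467-98858876 (score 65.4, rank 2290), which covered 100% of this gene of 1 exon. Foxf2, a gene of gut and palate mesenchyme, had the intergenic peak chr13:31715465-31718787 (score 64.7, rank 2410), centred 0.559 kb upstream. Foxa2, known from the node, the notochord, the floor plate and endoderm, had the lowest score of the group, 51.65 (rank 4843), for chr2:147868961-147873056, which was centred in an intron at 1.70 kb and covered 91.5% of the gene. All 7 start-proximal E10.5 peaks spanned the 5′ end, 6 of 7 were centred downstream of it, and 4 covered over 50% of the gene body. The scores of these 7 peaks had a median of 65.4, compared with 59.8 over the whole E10.5 list.

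No SMAD sequence searched was present in all of the start-proximal peaks, and nothing was read from counts of this size. In the central 300 bp, CAGAC was present in 4 of 7 E10.5 peaks, against 53.2% of all E10.5 peaks, and CAGACC in 2 of 7, at Foxo3 and Foxo4, against 19.7%. A match of GGCGCC, a GC-rich SMAD sequence, was found in 2 of 7, at Foxl2 and Foxq1, against 13.1%. The palindrome GTCTAGAC and the forkhead core GTAAACA were in 0 of 7, against 0.42% and 2.13%. The match nearest the peak centre is shown for Foxq1, the best-scored of these peaks with a match after that at Foxo3, and for Foxo4, added as the other peak with CAGACC, each 5′ to 3′ on the plus strand of mm9, with the matches in capitals. The stretches lie at chr13:31650672-31650700 and chrX:98450260-98450289, both in coding exons, 647 and 408 bp downstream of the respective 5′ ends.
Foxq1, E10.5 peak: cccaggagaagaCAGACtcagcgggccac
Foxo4, E10.5 peak: cccttcctcgacCAGACCtcgctacggagc

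Peaks further from the members were examined next. The 26 members with an E10.5 peak within 100 kb had 47 distinct peaks, and the 11 members at E9.5 had 11, since each had exactly 1. At E10.5, 10 members had 1 peak, 10 had 2, 4 had 3, and Foxh1 and Foxr1 had 4 and 7. The E9.5 peaks had a median score of 56.5, compared with 56.3 over the whole list, and the E10.5 peaks one of 64.4, compared with 59.8. The best-scored 25% of the E10.5 list contributed 17 of the 47 peaks (36.2%), and the best-scored 25% of the E9.5 list contributed 3 of 11 (27.3%). The E10.5 peaks were also wider than those of the list, with medians of 3666 and 2552 bp, as were the E9.5 peaks, with medians of 1560 and 1244 bp. Of the 19 E10.5 peaks whose nearest protein-coding gene was a Fox gene, 5 (26.3%) were in the best-scored 25% of the list. These 19 peaks had a median score of 64.4 and a median width of 3220 bp. The whole lists, unlike the peaks near members, are not limited to peaks within 100 kb of a gene.

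With a score of 100 or more, 1 member (2.33%), Foxo3, had a peak within 5 kb at each stage, against 0.716% of all protein-coding genes at E9.5 and 1.84% at E10.5. Within 100 kb, Foxo3 was again the member with such a peak at E9.5 (2.33% against 3.04%), and 6 of the 43 members had one at E10.5 (14% against 8.77%), namely Foxa3, Foxd1, Foxh1, Foxo3, Foxp4 and Foxr1. By position of the centre, 17 E10.5 peaks were intergenic, 18 intronic, 9 in a coding exon and 3 in a UTR, whereas 5 E9.5 peaks were intergenic, 4 intronic and 2 in a coding exon.

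**Figure D2:**
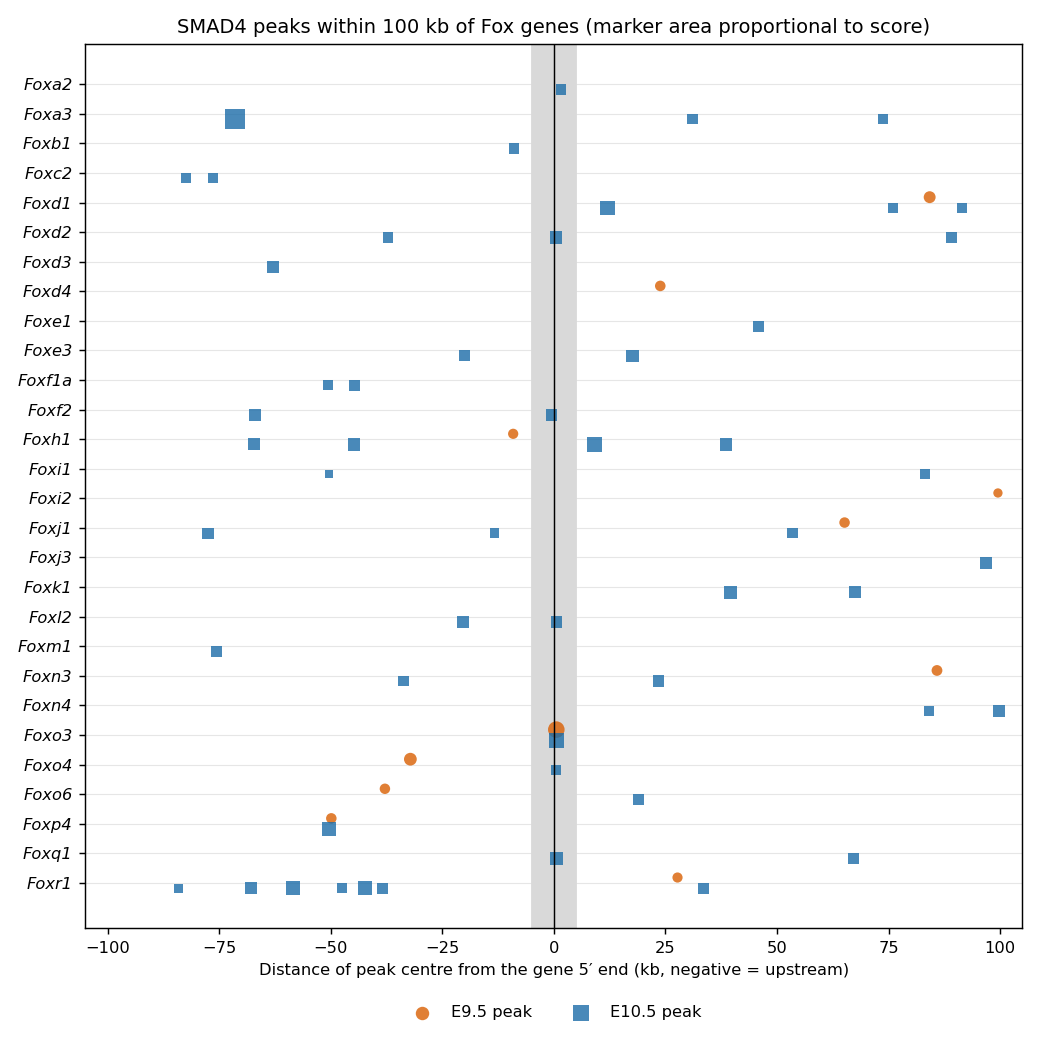
SMAD4 peaks within 100 kb of the 28 Fox genes that had any. The x axis gives the distance of the peak centre from the gene 5′ end (kb, negative upstream), each row is a gene, circles are E9.5 and squares E10.5 peaks, the marker area is proportional to the score and the grey band marks 5 kb to either side. The band holds 7 E10.5 peaks and 1 E9.5 peak, the latter at Foxo3.

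**Figure D3:**
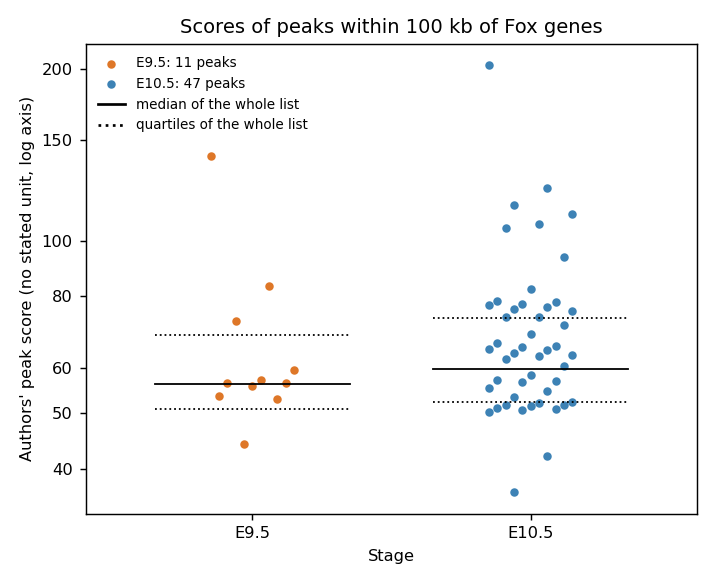
Scores given by the authors (y axis, no stated unit, log axis) of the peaks within 100 kb of a Fox gene, 11 at E9.5 (left) and 47 at E10.5 (right), 1 point per peak, with the median (solid) and quartiles (dotted) of each whole list. The Fox peaks have median scores of 56.5 (E9.5) and, in the later list, 64.4, and 1 E9.5 and 6 E10.5 peaks have scores of 100 or more.

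Many of these peaks were nearer to another gene. The nearest protein-coding 5′ end was that of a Fox gene for 3 of the 11 E9.5 peaks, at Foxo3, Foxo6 and Foxp4, and for 19 of the 47 E10.5 peaks, at 16 members. Over all protein-coding genes, 6.75% were the nearest gene of an E9.5 peak and 20.3% of an E10.5 peak within 100 kb, compared with 3 (6.98%) and 16 (37.2%) of the 43 members. The members had a median of 2 other protein-coding starts within 100 kb, compared with 3 over all genes. The part of this spacing in the shares was not tested. The best-scored E10.5 peak of all, chr7:19675636-19684960 (score 202.8, rank 39), counted for Foxa3, an endoderm and liver gene, at a distance of -71.41 kb (negative upstream), but it was centred in a coding exon of Six5, 0.405 kb from the start of that gene. The next, chr15:76488531-76494033 (score 123.7, rank 221), lay 9.10 kb downstream of the start of Foxh1 and 0.286 kb from that of Kifc2.

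Foxh1, the SMAD partner gene, thus had peaks within 10 kb at both stages, and none of its 4 E10.5 peaks and 1 E9.5 peak had it as the nearest gene. The E9.5 peak chr15:76508776-76510214 (score 53.6, rank 1225) lay 9.12 kb upstream in an intron of Ppp1r16a. Foxr1 had the largest number of E10.5 peaks, 7, with scores from 42.04 to 105.5, and 0 of them had it as the nearest gene. Foxh1, Foxa3 and Foxr1 had 14, 12 and 11 other protein-coding starts within 100 kb, compared with a median of 2 over the members and 3 over all genes.

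Peaks with a Fox gene as their nearest gene were found at some distance from several members. Foxd1, known from the kidney stroma and the retina, had chr13:99135189-99137320 (score 107.1, rank 390), an intergenic E10.5 peak 12.1 kb downstream of its start. Its E9.5 peak chr13:99207453-99209364 (score 72.6, rank 430) was 84.2 kb downstream and nearer to another gene. Foxb1, a gene of the developing diencephalon, had an intergenic E10.5 peak 8.93 kb upstream (score 56.7), which with that at Kifc2 was the closest outside the limit of 5 kb.

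The neural crest gene Foxd3 had an intergenic E10.5 peak 62.9 kb upstream (score 68.7), and Foxl2 had a further one 20.3 kb upstream (score 77.4), above the score of the peak at its start. Foxn3, which takes part in the DNA damage checkpoint, had an intronic E10.5 peak at 23.4 kb (score 64.4) and an intronic E9.5 peak at 85.8 kb (score 59.5), which did not overlap. Foxd4 had an E9.5 peak at 23.8 kb (score 57.2) and its nearest E10.5 peak at 103.6 kb, just outside the limit. Just inside it lay the E9.5 peak of Foxi2, at 99.5 kb (score 44.1). These E9.5 peaks of Foxn3, Foxd4 and Foxi2 were each nearer to the start of another gene.

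Foxp4, a FOXP gene of the lung and gut, had the other region that was bound at both stages. The E9.5 peak chr17:48110279-48112644 (score 56.5, rank 1018) lay entirely inside the E10.5 peak chr17:48109906-48114026 (score 111.6, rank 335), and the centres were intergenic, 49.9 and 50.4 kb upstream of the gene. Thus 2 of the 11 E9.5 peaks (18.2%) near Fox genes overlapped an E10.5 peak by at least 1 bp, compared with 18.7% of the E9.5 list, and 2 of the 47 E10.5 peaks (4.26%) overlapped an E9.5 peak, compared with 6.26%. At Foxp4, the central 300 bp of the E9.5 peak held 9 matches of CAGAC, all on the plus strand, as many as or more than which were held by 16 of 2073 E9.5 peaks (0.772%). The mean over the E9.5 list was 1.15 matches. The stretch with most matches, chosen after the counts had been seen, lies at chr17:48111446-48111475 (mm9, plus strand) and holds 4 of them, overlapping each other in part, in a short tandem repeat.
Foxp4, E9.5 peak: agCAGACAGACAGACaCAGACaaatagaca

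The central 300 bp of the E10.5 peak at Foxp4, whose centre lies further from the gene, held 2 matches. The other FOXP genes, Foxp1, Foxp2 and the regulatory T cell gene Foxp3, had no peak within 100 kb of the gene's 5′ end at either stage. When every annotated transcript start was used, Foxp1 had an E10.5 peak within 100 kb, and no other member was added.

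Neighboring Fox genes shared their peaks. Foxd2 and the lens gene Foxe3 have 5′ ends 17.2 kb apart on chromosome 4 and had 2 E10.5 peaks in common, that at the start of Foxd2 and the intergenic peak chr4:114617553-114619828 (score 56.9), 20.03 kb upstream of Foxe3. Foxq1 and Foxf2, 67.6 kb apart on chromosome 13, shared their start-proximal peaks within this distance limit. Foxf1a, a gene of lateral plate mesoderm, and Foxc2, a gene of somites and lymphatic vessels, are 31.8 kb apart on chromosome 8 and had 2 E10.5 peaks in common, chr8:123554327-123560908 (score 51.15) and chr8:123561068-123566219 (score 55.3). These lay upstream of both genes, 50.7 and 44.6 kb from Foxf1a, respectively, inside an intron of Gm20388, and their scores were below the list median of 59.8. Foxc1 lies 180.8 kb from Foxf2 and had no peak within 100 kb. None of these genes had an E9.5 peak within 100 kb.

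**Figure D4:**
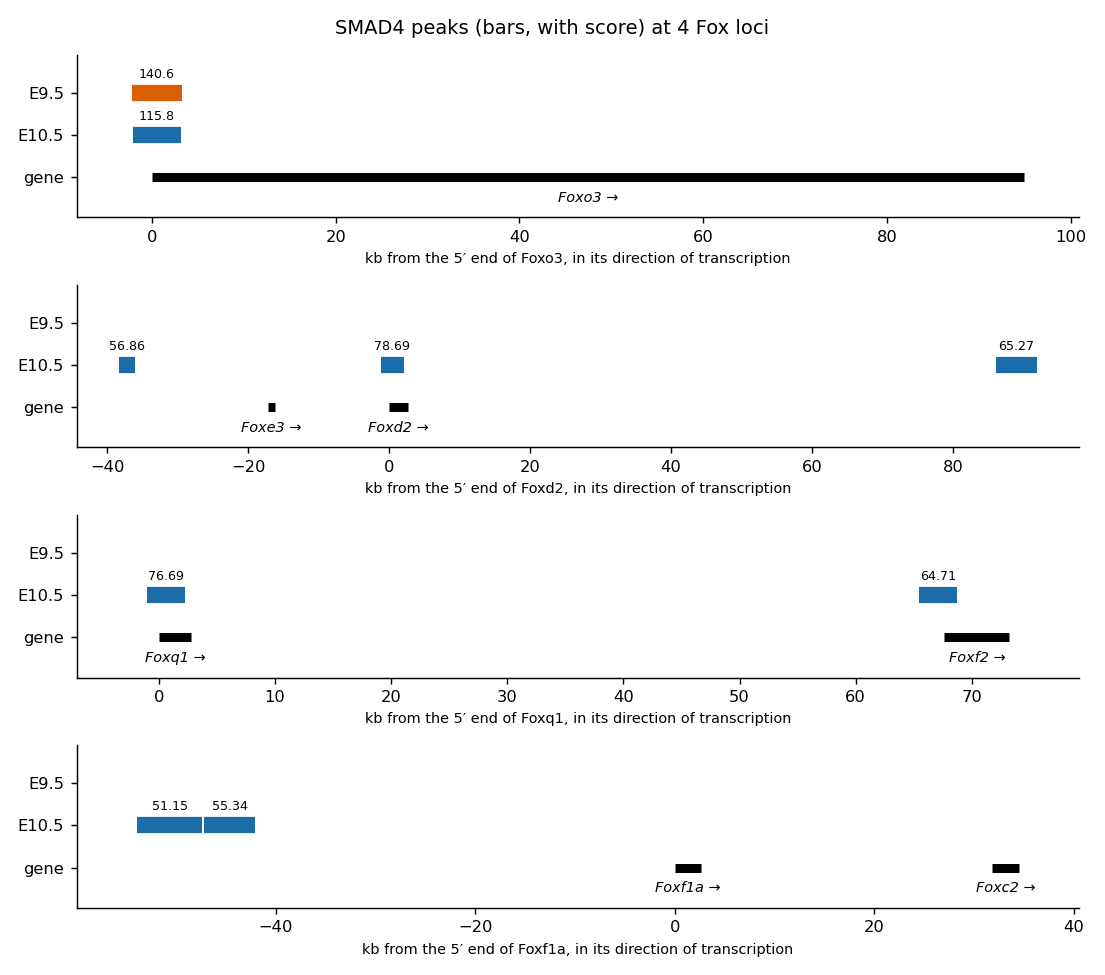
Maps to scale of 4 Fox loci, in kb from the 5′ end of the first-named gene, in its direction of transcription. Black bars are Fox genes (arrows give the direction), colored bars are the E9.5 and E10.5 peaks that lie within 100 kb of these genes, with their scores. Peaks at both stages overlap at the start of Foxo3, and the other 3 loci hold E10.5 peaks alone.

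By subfamily, a peak within 100 kb at E10.5 was found for 3 of 4 Foxd, 3 of 4 Foxo, 2 of 3 Foxa, 2 of 3 Foxj, 2 of 4 Foxn, 2 of 2 Foxe and 2 of 2 Foxf genes, and for 1 of 4 Foxp, 1 of 3 Foxi and 1 of 2 each of Foxb, Foxc, Foxk and Foxr genes. Foxh1, Foxl2, Foxm1 and Foxq1 are the lone members of their subfamilies in this annotation and each had an E10.5 peak, whereas Foxs1 had none. At E9.5, peaks were found for 3 of 4 Foxo, 2 of 4 Foxd and 1 gene each of Foxh, Foxi, Foxj, Foxn, Foxp and Foxr. Over all protein-coding genes, 52.9% had an E10.5 peak within 100 kb, 20.5% an E9.5 peak and 41.2% neither. Nothing was read from counts in subfamilies this small. The 15 members with no peak within 100 kb at either stage included Foxa1, Foxb2, Foxc1, Foxi3, Foxj2, Foxk2, Foxn1, Foxn2, Foxo1, Foxp1, Foxp2, Foxp3, Foxr2 and Foxs1. Among these, Foxr2 lay 9773 kb from an E9.5 peak, the largest distance of any member.

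**Figure D5:**
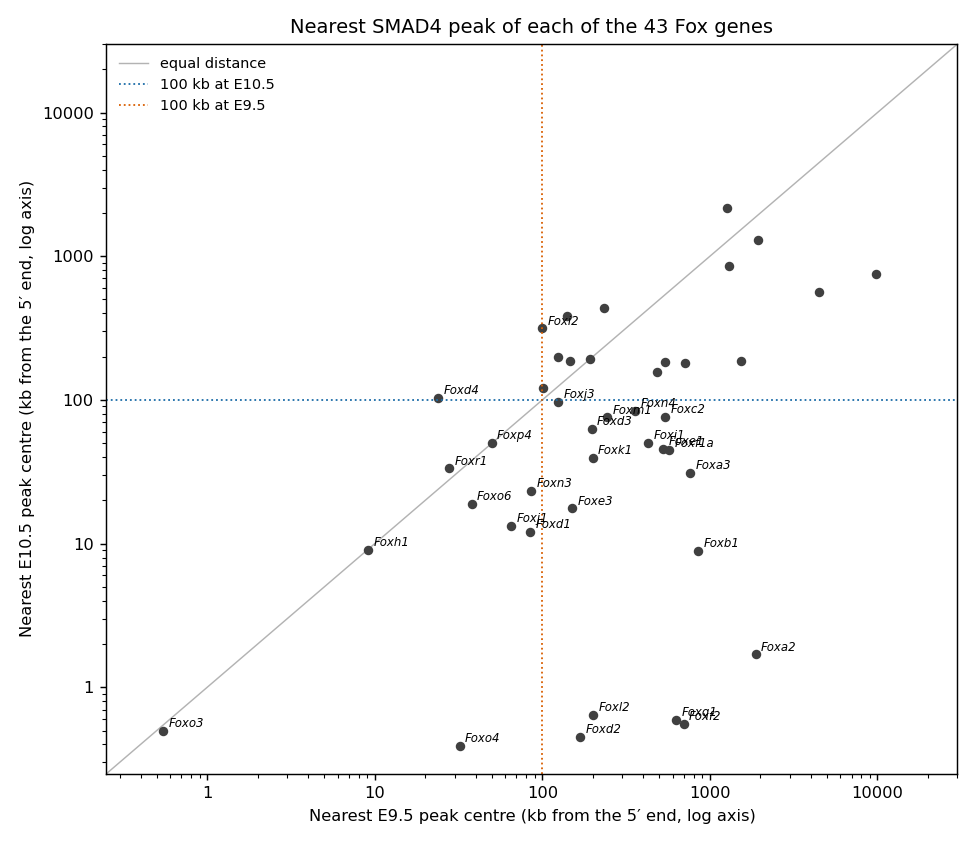
Distance of the nearest E9.5 (x axis) and E10.5 (y axis) peak centre from the 5′ end of each of the 43 Fox genes (kb, log axes), 1 point per gene, with a grey line of equal distance and dotted lines at 100 kb, and with names for the genes with a peak within 100 kb at either stage. Foxo3 lies below 1 kb on both axes, and Foxa2, Foxd2, Foxf2, Foxl2 and Foxq1 lie below 2 kb at E10.5 and beyond 100 kb at E9.5.

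Sequence features of the starts and the gene structure, which were not used to choose the members, were also compared with all genes. A CpG-rich start, defined as at least 50% GC and an observed to expected CpG ratio of at least 0.6 within 500 bp of the 5′ end, was present in 29 of 43 members (67.4%), compared with 44.2% of all protein-coding genes. Among CpG-rich starts, 6 of 29 members (20.7%) had an E10.5 peak within 5 kb, against 22% of all such genes, and 21 (72.4%) had one within 100 kb, against 66%. At E9.5 these values were 1 of 29 (3.45%) against 4.62%, and 7 (24.1%) against 25.5%. Of the 14 members with another kind of start, 1 (Foxa2, 7.14%) had an E10.5 peak within 5 kb, against 5.96% of all such genes, and 5 (35.7%) had one within 100 kb, against 42.5%. In the E9.5 list none of these 14 had a peak within 5 kb, against 1.07%, and 4 (28.6%) had one within 100 kb, against 16.6%. Fox genes are short, with a median length of 5.49 kb compared with 15.4 kb over all genes, and 11 (25.6%) consist of 1 exon, compared with 12.7%. The part of CpG content in the position of the peaks was not tested.

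Other families of developmental transcription factors, taken by symbol, were set beside the Fox genes. An E10.5 peak lay within 5 kb of 7 of 19 Sox (36.8%), 4 of 13 Tbx (30.8%), 2 of 9 Pax (22.2%), 1 of 6 Gata (16.7%), 3 of 6 Irx (50%) and 16 of 40 Hox gene records (40%), compared with 7 of 43 Fox genes (16.3%) and 13% of all protein-coding genes. In the E9.5 list 1 Sox and 6 Hox records had a peak within 5 kb and none of the Tbx, Pax, Gata and Irx genes did. Within 100 kb the order differed. An E9.5 peak lay there for 25.6% of the Fox genes, compared with 15.8% of Sox, 7.69% of Tbx, 11.1% of Pax, 16.7% of Gata, 16.7% of Irx and 97.5% of Hox records, and 20.5% of all protein-coding genes. For an E10.5 peak the share was 60.5% of the Fox genes, compared with 78.9% of Sox, 53.8% of Tbx, 77.8% of Pax, 50% of Gata, 66.7% of Irx and 100% of Hox records, and 52.9% of all protein-coding genes. Sox4 and Hoxa3 each have more than 1 record in this annotation. A peak counted for every gene within the limit, so that neighboring genes, as in the Hox clusters, could share the same peak. The difference was not tested, since the families were chosen with earlier results known.

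Genes that act with FOXO proteins were examined as well. Of 12 genes upstream of FOXO in insulin and growth factor signaling, 1 gene (8.33%, against 2.64% of all protein-coding genes) had a peak within 5 kb at E9.5 and 5 genes (41.7% against 13%) at E10.5. Within 100 kb the counts were 2 (16.7% against 20.5%) and 10 (83.3% against 52.9%). The E10.5 peaks within 5 kb included those at Irs2 (score 157.1) and Irs1 (90.3), which encode adaptors of the insulin receptor, at the growth factor receptor gene Igf1r (114.8) and at the kinase gene Pik3ca (53.3). Of 11 genes known as FOXO targets, none had a peak within 5 kb at E9.5 (2.64% of all protein-coding genes) and 3 did at E10.5 (27.3% against 13%). Within 100 kb the counts were 2 (18.2% against 20.5%) and 8 (72.7% against 52.9%). Those within 5 kb were the proapoptotic gene Bcl2l11 (score 167.3), the cyclin gene Ccng2 (75.4) and the cell cycle inhibitor gene Cdkn1a (52.0). Among Smad2, Smad3 and Smad4, which encode partners of FOXH1 and FOXO proteins, Smad4 alone had peaks within 100 kb, 2 at E10.5, the nearer of them 0.136 kb from its 5′ end (score 94.1). Among all genes with a CpG-rich start, 22% had an E10.5 peak within 5 kb and 66% within 100 kb. The kind of start of the listed genes was not compared. Nothing was read from counts in lists this small, which were chosen with earlier results of these data known.

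In the central 300 bp of all peaks within 100 kb of a Fox gene, CAGAC was present in 8 of 11 E9.5 peaks (72.7% against 60.6% of the list) and 26 of 47 E10.5 peaks (55.3% against 53.2%). CAGACC was present in 1 of 11 (9.09% against 20.9%) and 13 of 47 (27.7% against 19.7%). The forkhead core GTAAACA was in 0 of 11 E9.5 peaks (2.89% of the list) and in 2 of 47 E10.5 peaks (4.26% against 2.13%), near Foxi1 and Foxr1. All letters were searched on both strands, CAGAC is contained in CAGACC, and counts of this size describe these peaks alone.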

How the data were processed

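SMAD4 ChIP-seq and input samples were sequenced at both stages. The authors trimmed the reads, aligned them to mm9 with Bowtie 1.1.0 keeping unique matches, called peaks in each replicate with MACS 1.4 against the input, and merged the replicates with MSPC. The deposited lists give a position and a score per peak, and the authors assigned the best MACS p-value of the merged calls to each peak. The lists do not say whether the deposited score is derived from it and name no unit, so the score was used only to rank and select peaks within a list.

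Genes came from GENCODE vM1 on the same build. Distances run from the peak centre to the 5′ end of the gene record, negative upstream, and an overlap needed 1 bp. Sequences were read from mm9 in 300 bp around the centre. Python 3.11.15, NumPy 2.4.6 and Matplotlib 3.10.9 were used, and the assignment of peaks was tested on simulated positions. The named members are those with a peak within 5 kb, the 5 best-scored distinct peaks per stage, the shared peaks and the clusters, and further members were added where they lie next to a distance limit, share a subfamily or are the nearest gene of a peak. CpG-rich starts were defined after the data had been seen. The members and lists were chosen with earlier results of these data known. Some genes of these lists are counted but not reported by name here. Replicate values are not analysed here, so no test was run.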

Additional observations from a re-analysis of the deposited data

How the results depend on the processing

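Of 50 alternative values of 7 counts, 25 lay within 1.5 times the value reported. Neither the use of any transcript start, run for the 4 gene and 2 peak counts, nor that of the peak edge, run for the 4 gene counts, moved them by more. With 10 kb in place of 5 kb, 2 members had an E9.5 peak. With 50 and 200 kb in place of 100 kb, 7 and 21 members had an E9.5 peak (against 11), and the distinct peaks numbered 7 and 26 at E9.5 (against 11) and 26 and 89 at E10.5 (against 47). With peaks scored 100 or more, 1 member and 1 peak were left within 100 kb at E9.5, 1 member within 5 kb and 6 members with 6 peaks within 100 kb at E10.5, and 1 shared E9.5 peak. With the better-scored 50% of each list, 7 members and 7 peaks were left at E9.5 and 29 peaks at E10.5 within 100 kb. When a peak counted for its nearest gene alone, 3 members and 3 peaks remained at E9.5 and 16 members and 19 peaks at E10.5. With as many E10.5 as E9.5 peaks, 3 members were counted within 5 kb, and 15 members with 19 peaks within 100 kb. Centres within 250 bp left 1 shared E9.5 peak, at Foxo3. With CpG-rich starts alone, a setting added after the data had been seen, 7 members had an E9.5 peak within 100 kb. These settings use fewer or more peaks or genes by construction. No paired analysis was possible because the peak lists used here hold both replicates of a stage merged, and for the same reason no replicate could be left out. Values of single replicates were not analysed here. The depth is unknown and limits each statement on genes without a peak.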
